A study of Mus musculus with 6 samples.

Results

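Traip (ENSMUSG00000032586) was examined transcript by transcript in blasts with and without the Asxl1 G643W change. It was taken by name as 1 gene of the 53458 with a transcript in the deposited tables, and it was chosen by its read total and TPM in these same 6 libraries, which differed between the genotypes. Its values by genotype are therefore given as a description, without a test. The libraries came from acute myeloid leukemia in transplanted C57/BL6 mice, with blasts sorted from bone marrow as CD45.2+ cells that were Mac1low and Gr1low and lacked Ter119, B220 and CD3. All 6 libraries carried the Cebpa-/p30 genotype, in which 1 allele is lost and the other gives the short p30 form of the transcription factor C/EBPα. Of these, 3 were Cebpa-/p30; Asxl1WT (called WT) and 3 were Cebpa-/p30; Asxl1G643W/G643W (called G643W), with the changed Asxl1 on both alleles. The labels do not say which libraries trace to separate primary leukemias, so the spread between them may be partly technical.

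Traip is a RING-type ubiquitin ligase that travels with the DNA replication machinery. It marks the CMG helicase (the Mcm2 to Mcm7 ring with Cdc45 and the GINS subunits) for removal when replication forks meet at a DNA crosslink or when replisomes are still on chromatin as cells enter mitosis. The protein was first described as a partner of TRAF adaptors, which carry signals from TNF family receptors. It is known to be needed by dividing cells.

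GENCODE M21 (GRCm38) places Traip on the plus strand of chromosome 9, from 107950136 to 107972270, with 7 transcripts. All 7 were in the tables, and 6 had reads in at least 1 library. Traip-201, the protein-coding form with 15 exons and 2706 bases, runs from the first to the last exon, as does Traip-206 (3680 bases), which keeps introns and starts upstream of it, at 107950136 against 107950956. Traip-202 (1949 bases, no coding sequence) and Traip-205 (515 bases, annotated as coding) start at the same first exon but end before exon 7. Traip-203 (383 bases), Traip-204 (400 bases) and Traip-207 (844 bases) start inside the gene and are not annotated as coding. Traip-203 starts 9435 bases and Traip-204 starts 11216 bases after the start of Traip-201. No annotated gene overlaps Traip on either strand.

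The starts of Traip-203 and Traip-204 are shown because these 2 short transcripts took the highest levels of TPM in G643W blasts. Capitals mark the bases that also lie in Traip-201 exons, and lower case marks the bases that lie in its introns. The Traip-203 stretch joins its first exon (chr9:107960391-107960558, 168 bases, in intron 5 of Traip-201) to exon 6 (95 bases). The Traip-204 stretch is its first exon (chr9:107962172-107962341), of which 82 bases are from intron 7 and 88 from exon 8. Both are on the plus strand of GRCm38.
Traip-203: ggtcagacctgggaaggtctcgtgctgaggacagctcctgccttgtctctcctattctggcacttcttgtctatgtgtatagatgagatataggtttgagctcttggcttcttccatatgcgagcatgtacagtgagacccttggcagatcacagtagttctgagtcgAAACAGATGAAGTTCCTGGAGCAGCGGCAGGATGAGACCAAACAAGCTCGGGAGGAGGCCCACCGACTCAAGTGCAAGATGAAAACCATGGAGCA
Traip-204: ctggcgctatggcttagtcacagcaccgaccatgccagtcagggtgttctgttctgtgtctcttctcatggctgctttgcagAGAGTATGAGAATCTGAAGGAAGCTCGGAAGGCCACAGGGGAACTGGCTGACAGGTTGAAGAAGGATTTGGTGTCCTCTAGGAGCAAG
None of the lower-case bases aligned to a transcript of another gene in a BLAST search with an E-value limit of 1e-05, while the capitals did, to the copies on chromosome 2 described further on.

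The region around the annotated start is shown because Traip-201, Traip-202 and Traip-205 all begin there and their levels went different ways. It is the RefSeq (GRCm38.p6) window chr9:107950713-107951012 on the plus strand, 250 bases before to 50 after the start. Capitals mark matches to CCAAT (a box bound by NF-Y), TTTGAA (an element common in promoters of mitosis genes) and CCGGAAGT (a site type of ETS factors).
Traip promoter: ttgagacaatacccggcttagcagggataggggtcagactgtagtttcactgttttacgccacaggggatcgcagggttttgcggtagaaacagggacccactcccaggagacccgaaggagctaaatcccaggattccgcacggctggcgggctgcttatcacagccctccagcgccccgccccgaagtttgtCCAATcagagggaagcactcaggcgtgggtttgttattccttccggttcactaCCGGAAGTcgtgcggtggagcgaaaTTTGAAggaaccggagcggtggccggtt
Each of these 3 motifs matched once, on the plus strand and without overlap. CCAAT on either strand was in 37.4% of the 32851 promoters of the same length, TTTGAA in 17.9% and CCGGAAGT in 3.89%. TTCCCGCC, a site type of E2F factors, did not match, and was in 2.19% of promoters. The motifs were chosen after the sequence had been read, and a match is a description only.

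Estimated read totals ranged from 61167075 to 101189225 per library. Traip took 1176, 1819 and 2088 estimated reads across WT libraries 1 to 3, against 144436, 281501 and 201531 across G643W libraries 1 to 3. Traip was thus 0.00162%, 0.0026% and 0.00275% of all reads in WT and 0.236%, 0.278% and 0.262% in G643W libraries. The genotypes did not overlap, and the lowest G643W library was 76.1 times the highest WT library in CPM (reads scaled to library size with TMM factors). By TPM, which also divides by transcript length, Traip ranked 8032, 5599 and 5432 among the genes of the WT libraries and 104, 59 and 65 among those of the G643W libraries. The mean level went from 22.98 ± 6.59 to 2663 ± 528 CPM (SD, n = 3 each), a ratio of 116. On the TPM scale it went from 9.99 ± 3.68 to 1703 ± 262 (SD, n = 3 each), a ratio of 170. The log2 difference in the count model was 6.86 ± 0.42 (SE), rank 10 by size of rise among 20654 genes tested. That rank was not stable, at 61, 33 and 63 without WT library 1, 2 or 3, 20 without G643W library 1 and 1 with limma on log2(TPM + 1). The ranks with 1 library left out are over other sets of genes, as the filter was run again. These sets held 21551, 22266 and 22201 genes without WT library 1, 2 or 3 and 21644 without G643W library 1. With 1 library left out the log2 difference itself stayed between 6.63 and 7.09. Within a genotype the spread was small, with 1.79 times between the highest and the lowest WT library and 1.50 times between the highest and the lowest G643W library in CPM.

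The rise was not shared by every transcript. Traip-201 was at 2.01, 2.87 and 3.12 TPM across WT against 265, 330 and 318 TPM across G643W. It held most Traip reads in both genotypes, 72.1% ± 5.2 in WT and 67.1% ± 1.4 in G643W (SD, n = 3 each). The intron-keeping Traip-206 was at 0.21, 0.30 and 0.50 TPM across WT against 39.6, 54.7 and 53.5 TPM across G643W. Both of these whole-gene transcripts were far higher in every G643W library than in any WT library, by 114 and 146 times in the ratio of mean TPM.

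The short internal transcripts were higher by a larger factor. Traip-203 was listed at 0, 2.74 and 2.42 TPM across WT against 580, 787 and 749 TPM across G643W. Traip-204 was at 2.42, 2.84 and 2.90 TPM across WT against 521, 728 and 683 TPM across G643W. Their ratios of mean TPM were 410 and 236, and again no G643W library was near a WT library. The WT side of these ratios rests on few estimated reads. Across WT they were 0, 72.2 and 63.5 for Traip-203 and 74.9, 88.0 and 88.6 for Traip-204. Traip-203 has 168 bases in no other Traip transcript, but Traip-204 has 0, as its intron bases also lie in Traip-206. The Traip-204 values are therefore an assignment by Salmon among transcripts that share its bases. Traip-207, which also has no base of its own, was assigned no read in any of the 6 libraries. Together the transcripts that start inside the gene made up 41.2%, 50.2% and 41.0% of Traip TPM in WT and 78.3%, 79.7% and 79.4% in G643W, although they held only 17.7% to 19.1% of Traip reads in G643W. This gap between the units comes from the length of Traip-203 and Traip-204. Salmon counted only 134 to 188 bases of each of these 2 as open to fragments, so that few reads give a high TPM. The G643W total of 1703 TPM should be read with that in mind.

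The transcripts that begin at the first exon and end before exon 7 did not show a rise of this size. Traip-202, with 1601 bases in no other Traip transcript, was at 0.042, 0.13 and 0.25 TPM across WT against 0.19, 0.40 and 0.32 TPM across G643W, from 11.2 to 134 estimated reads per library. The genotypes overlapped in Traip-202, with a ratio of mean TPM of 2.15. Traip-205 went the other way, at 1.19, 2.24 and 3.77 TPM across WT against 0.076, 0.033 and 0 TPM across G643W. Its reads were 59.0, 115 and 183 in WT and 3.10, 2.05 and 0 in G643W, so the highest G643W library was under the lowest WT library. Traip-205 has no base that Traip-201 lacks and differs from it by its splice junctions and end, so a 0 there is an assignment by Salmon and not a detection limit. Fitted on their own in place of the gene, these 2 transcripts together gave a log2 difference of -0.96 ± 0.60 (SE), against 6.86 for all 7. The negative sign comes from Traip-205, since the mean reads of Traip-202 went from 37.7 in WT to 85.6 in G643W. As a share of Traip reads the 2 together went from 5.97%, 8.24% and 12.0% in WT to 0.032%, 0.0485% and 0.0393% in G643W.

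**Figure D1:**
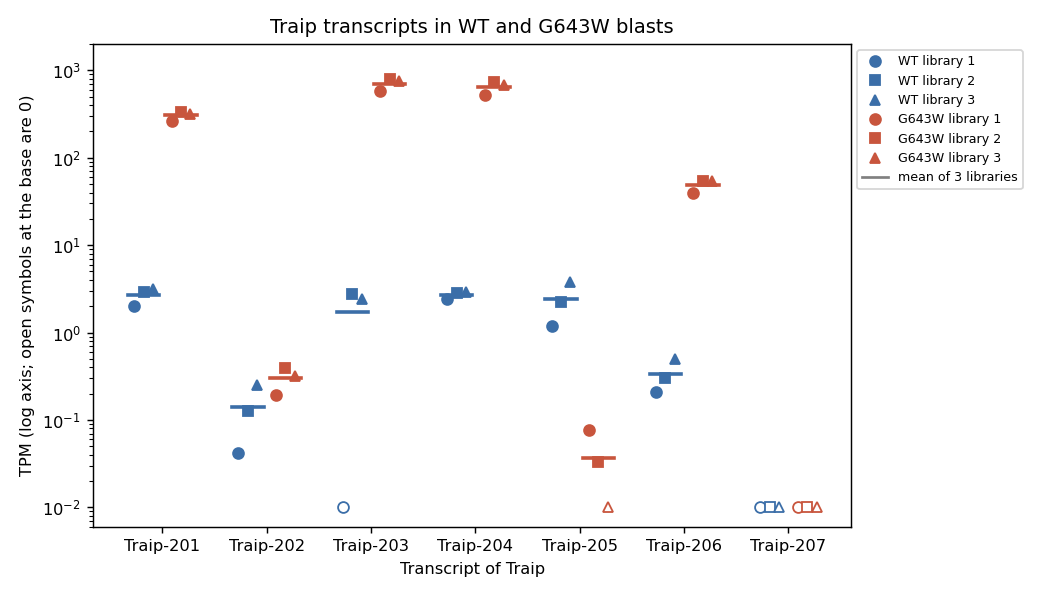
TPM (log axis) of each Traip transcript in each library, WT in blue and G643W in red, with bars for the mean of 3 libraries and open symbols at the base for a value of 0. Traip-201, Traip-203, Traip-204 and Traip-206 lie far higher in all 3 G643W libraries, Traip-202 overlaps, Traip-205 lies lower in G643W, and Traip-207 is 0 throughout.

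Summing the TPM of the transcripts annotated over each exon gives the profile along the gene that the assignments imply. In WT the mean sum lay between 2.81 TPM at exon 15 and 6.45 TPM at exon 6. In G643W it was 334 to 354 TPM over exons 1 to 5, 1059 TPM at exons 6 and 7, 998 TPM at exons 8 to 10, 564 TPM at exon 11 and 325 to 354 TPM over exons 12 to 15. The G643W profile thus had a step up between exons 5 and 6 and a step down after exon 10. The ratio of G643W to WT means was lowest at exon 2 (63.8) and highest at exon 7 (224). Exon 6 starts at 107960978 and exon 11 ends at 107968749 on chromosome 9. These sums are not read counts per exon: Salmon assigns reads to whole transcripts, and reads per exon were not analysed here.

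**Figure D2:**
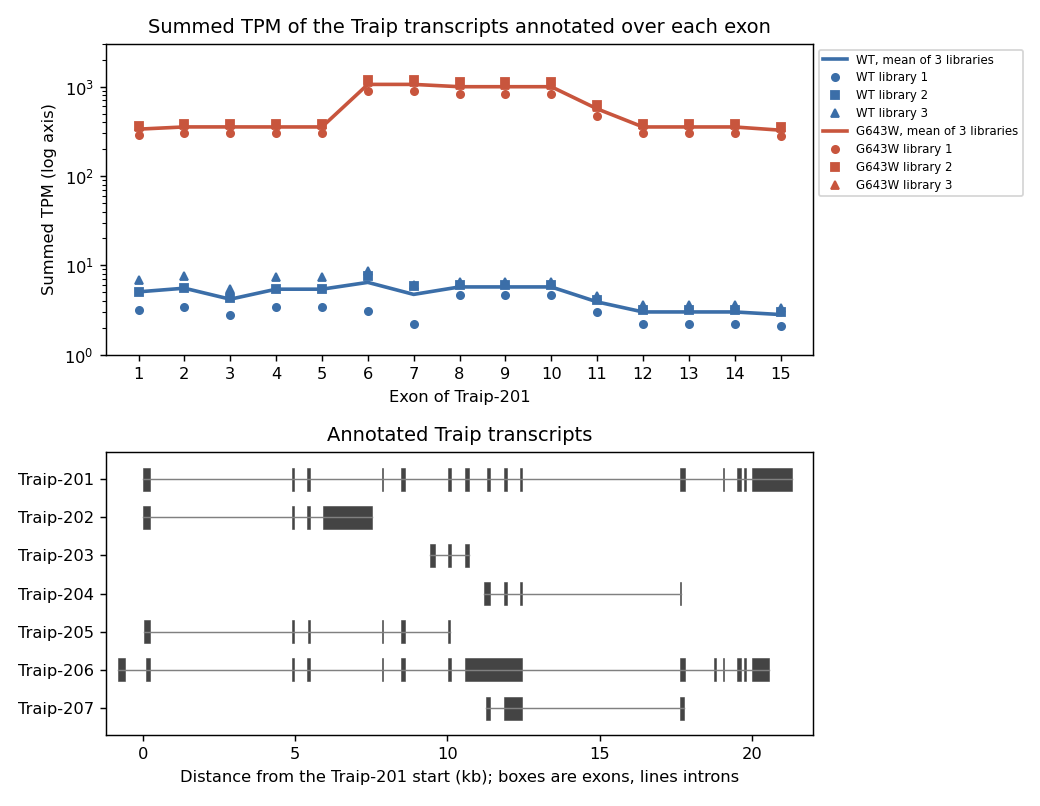
Top, summed TPM (log axis) of the Traip transcripts annotated over each of the 15 exons of Traip-201, by library, with lines through the means of 3 libraries. Bottom, the 7 annotated transcripts by distance from the Traip-201 start. The G643W sums step up at exon 6, where Traip-203 begins to contribute, and fall again after exon 10, while the WT sums stay between 2.10 and 8.75 TPM.

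Traip has a spliced copy elsewhere in the genome. Gm13384, a processed pseudogene on chromosome 2 (6132208 to 6133956, minus strand), aligned to Traip-201 with 90.8% identity over 1411 bases. It took 2.04, 0 and 1.02 estimated reads in WT and 27.7, 49.9 and 59.8 in G643W libraries, so it was also higher in every G643W library, but the log2 difference, 5.30 ± 0.81 (SE), missed the threshold (edgeR adjusted p = 0.128). In G643W its reads were 0.0192%, 0.0177% and 0.0297% of those of Traip, and whether they belong to the copy or to Traip cannot be told from these tables. Gm10857, a lincRNA that crosses the copy on the opposite strand, had 0 reads in WT and 9.49, 6.12 and 0 in G643W. Summing Traip with both left its log2 difference at 6.86.

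None of the tested genes next to Traip passed the test. Of the 10 nearest genes with reads, 5 on each side, 6 had enough reads to be tested and 0 passed (edgeR, adjusted p from 0.545 to 0.656), where 0.121% of all genes tested passed. Without adjustment 0 of the 6 had p under 0.05, against 9.66% of all genes tested. DESeq2 and limma also called 0 of the 6. Of all 20654 genes tested, DESeq2 called 0.794% as higher and 1.27% as lower. Limma called 20 of them on log2(TPM + 1) and 43 on log2(TPM + 0.1). With 6 genes and shares this low, 0 calls do not show that the neighbours were unchanged. Camkv, which encodes a kinase-like protein of neurons and ends 444 bases before Traip, was not tested, with at most 0.158 CPM in any library. The other untested neighbours were Actl11, Gm37974 and Gm24944, also at or under 0.158 CPM. Gm24944, a snoRNA gene 15098 bases after Traip, had 1, 2 and 6 reads across WT against 9, 8 and 9 across G643W, so its libraries did not overlap, on very few reads. Uba7, which encodes the enzyme that activates the ubiquitin-like ISG15 and starts 3234 bases after Traip, was at 187, 67.0 and 74.0 CPM across WT against 77.9, 66.1 and 88.6 CPM across G643W (log2 difference -0.50 ± 0.41, SE, edgeR adjusted p = 0.652). Apart from WT library 1 the Uba7 values lay close together, the genotypes overlapped, and without that library the difference turned to 0.13. Mst1r, a receptor tyrosine kinase gene 29752 bases before Traip, was at 1.01, 0.23 and 3.72 CPM across WT against 1.52, 3.45 and 8.53 CPM across G643W, with overlap (log2 difference 1.44 ± 1.04, SE, edgeR adjusted p = 0.613). Without WT library 3 the Mst1r difference was 2.93 (edgeR adjusted p = 0.310) and without G643W library 3 it was 0.58. Mon1a, a vesicle traffic gene, was the 1 tested neighbour whose libraries did not overlap, at 16.4, 17.4 and 18.4 CPM across WT against 12.3, 14.0 and 12.1 CPM across G643W (log2 difference -0.44 ± 0.23, SE, edgeR adjusted p = 0.545), against 15.9% of all genes tested. Inka1, an inhibitor of the kinase Pak4, was at 10.3, 8.89 and 8.16 CPM across WT against 9.60, 2.66 and 5.11 CPM across G643W, again with overlap. The remaining tested neighbours, Gm20661 and 4921523L03Rik, were under 1 CPM in all libraries.

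**Figure D3:**
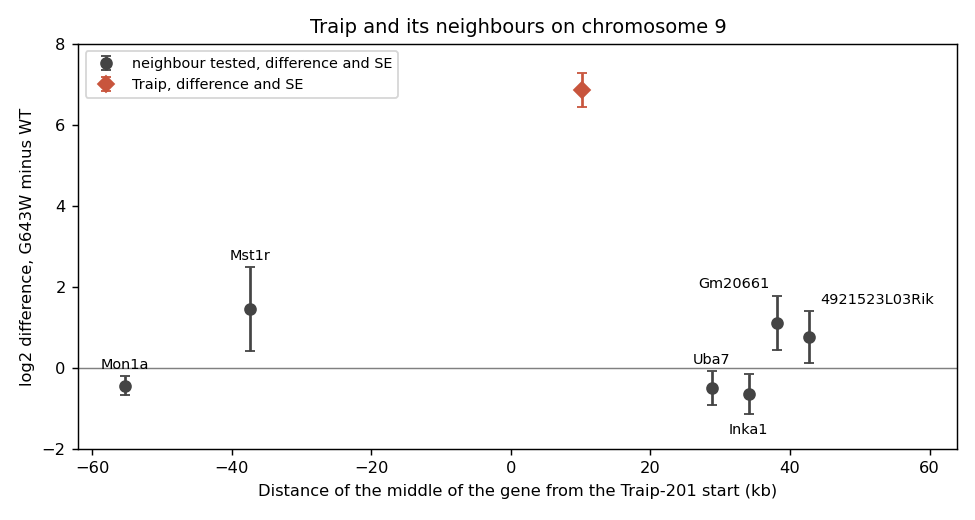
log2 difference (G643W minus WT, bars are SE) of Traip and its 6 tested neighbours by distance of the gene's middle from the Traip-201 start. Traip lies at 6.86 and the neighbours between -0.65 and 1.44.

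Among genes of the processes in which Traip acts, 0 of 97 tested members of 7 lists passed (edgeR, adjusted p under 0.05), where 0.0533% of all genes tested passed as higher and 0.0678% as lower. Without adjustment 13 of the 97 had p under 0.05, against 9.66% of all genes tested. All 10 genes of G2 and mitosis were among the 13, which leaves 3 of the 87 genes of the other lists. DESeq2 called 2 of the 97, Bub1 higher (adjusted p = 0.0407) and Traf1 lower (adjusted p = 0.00129), where it called 0.794% of all genes tested as higher and 1.27% as lower. The share of the 97 is near that of all genes. With 1 library left out, the medians of the 6 lists other than G2 and mitosis took either sign. For the CMG helicase, which Traip marks with ubiquitin, the 11 genes had a median log2 difference of 0.05, between -0.25 for Mcm4 and 0.35 for Gins1, beside -0.01 for all genes tested. Without WT library 3 the Mcm4 difference turned to 0.46 and the list median was 0.39, and without WT library 1 the median was -0.17. Mcm2, a subunit of the ring, was at 104, 176 and 246 CPM across WT against 228, 111 and 154 CPM across G643W. In 0 of the 11 did the genotypes separate, where 15.9% of all genes tested did. Genes that mark the helicase at normal termination or take the marked helicase off chromatin stayed as near, with a median of -0.07 over 11. Vcp, the ATPase that unfolds the marked helicase, was at 301, 385 and 341 CPM across WT against 332, 251 and 282 CPM across G643W (log2 difference -0.25 ± 0.22, SE, edgeR adjusted p = 0.674). Lrr1, whose ligase marks the helicase at normal termination, was at 3.87, 11.2 and 13.1 CPM across WT against 11.2, 11.6 and 10.4 CPM across G643W, with overlap. Rbx1, the RING subunit of that ligase, had the lowest p of the list, differing by 0.25 ± 0.20 on the log2 scale (SE; edgeR adjusted p = 0.645).

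Crosslink repair genes had a median of 0.19 over 19. Neil3, the glycosylase that unhooks crosslinks once Traip has marked the helicase, was at 23.8, 37.4 and 59.7 CPM across WT against 83.6, 122 and 92.0 CPM across G643W. All 3 G643W libraries lay above all WT libraries, and the log2 difference, 1.30 ± 0.36 (SE), missed the threshold (edgeR adjusted p = 0.454). Fancd2, the clamp subunit that is ubiquitinated at crosslinks, was at 17.4, 33.1 and 45.8 CPM across WT against 52.1, 56.3 and 56.4 CPM across G643W (log2 difference 0.78 ± 0.34, SE, edgeR adjusted p = 0.523). Fancc, of the core complex, was at 12.4, 16.7 and 12.7 CPM across WT against 12.2, 9.63 and 10.5 CPM across G643W. In 2 of the 19 the genotypes separated upward, against 7.05% of all genes tested, and in 1, Fancc, downward, against 8.89%.

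The 17 genes of the ATR checkpoint, which answers stalled forks, had a median of 0.03. Smarcal1, a fork-remodelling helicase, was at 30.7, 35.7 and 43.1 CPM across WT against 45.9, 61.7 and 47.5 CPM across G643W (log2 difference 0.50 ± 0.22, SE, edgeR adjusted p = 0.523), and of the 17 the genotypes separated in Smarcal1 and Rad17 only, both upward, where 7.05% of all genes tested did. Clspn, the mediator that activates Chek1, differed by 0.59 ± 0.33 on the log2 scale (SE; edgeR adjusted p = 0.564) with overlap. Other ubiquitin ligases and ubiquitin-linked factors of DNA damage had a median of 0.13 over 13. Sprtn, the protease for proteins crosslinked to DNA, was at 28.7, 34.9 and 37.7 CPM across WT against 29.3, 17.5 and 17.2 CPM across G643W, where G643W library 1 lay within the WT range (log2 difference -0.66 ± 0.28, SE, edgeR adjusted p = 0.511). Rnf169, which binds ubiquitinated chromatin at breaks, differed by 0.38 ± 0.22 on the log2 scale (SE; edgeR adjusted p = 0.563), and Rnf4 was the 1 gene of the 13 that separated, downward, where 8.89% of all genes tested did. TRAF signalling genes had a median of -0.04 over 16, and 3 separated downward, where 8.89% of all genes tested did. Traf1, an adaptor induced by NF-kB, was at 10.9, 3.67 and 1.18 CPM across WT against 0.29, 0.64 and 0.42 CPM across G643W, with WT library 1 far above the others (log2 difference -3.53 ± 0.87, SE, edgeR adjusted p = 0.409). Tradd, an adaptor of the TNF receptor, was at 28.5, 28.0 and 22.4 CPM across WT against 19.9, 19.7 and 16.6 CPM across G643W, and the remaining gene that separated was Tnfrsf1b. Without WT library 1 the Traf1 difference was -2.43 (edgeR adjusted p = 0.608).

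Genes of G2 and mitosis were the list that stood most apart from 0, with a median of 0.89 and a positive difference in all 10. None passed over all genes tested, although in 8 of the 10 the genotypes separated upward, against 7.05% of all genes tested. These genes are known to follow the share of dividing cells together, so the 8 are not separate observations. Bub1, a kinase of the spindle checkpoint, was at 31.9, 55.8 and 34.2 CPM across WT against 82.5, 108 and 90.7 CPM across G643W (log2 difference 1.20 ± 0.27, SE, edgeR adjusted p = 0.373). Plk1, a kinase of mitotic entry, was at 35.2, 48.2 and 38.5 CPM across WT against 64.7, 112 and 76.3 CPM across G643W (log2 difference 1.06 ± 0.27, SE, edgeR adjusted p = 0.409). In blood cells measured in bulk, more dividing cells and more RNA per cell cannot be told apart. The differences of these 10 genes, between 0.57 and 1.20, were all far below that of Traip.

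**Figure D4:**
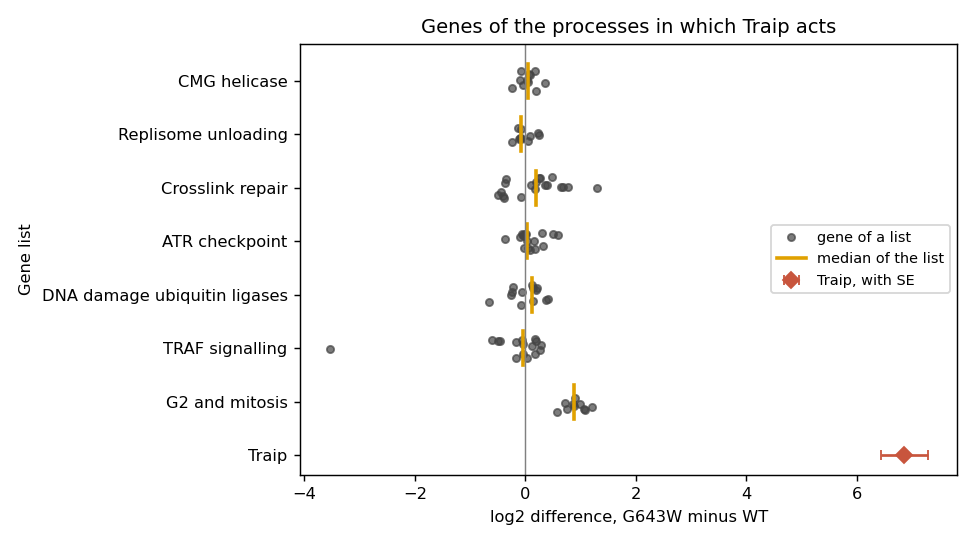
log2 difference (G643W minus WT) of each tested gene of 7 lists (points, spread vertically for view) with the median of each list (bars), and of Traip with its SE. The list medians lie between -0.07 and 0.89 and Traip at 6.86.

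Over the 6 libraries, the protein-coding genes whose log2 CPM was most like that of Traip were Gm13290 (Pearson r = 0.996), Cep152 (0.995), Rbl1 (0.986), Fam167a (0.984) and Mxi1 (0.984), out of 14108 compared. Gm13290 had 0 reads in all WT libraries and 16, 22 and 19 across G643W, so its r rests on very few reads. Fam167a was also low, at 0.17, 0.16 and 0.29 CPM across WT against 1.74, 1.57 and 2.12 CPM across G643W. Cep152, a centriole duplication gene, was at 23.4, 26.3 and 24.8 CPM across WT against 40.5, 42.9 and 40.6 CPM across G643W. Rbl1, which encodes the pocket protein p107, was at 56.9, 51.4 and 60.7 CPM across WT against 103, 112 and 111 CPM across G643W. The opposite pattern was closest in Rac3, a small GTPase gene (r = -0.994), Zfp990 (-0.994), Ccr6 (-0.993), Cd74 (-0.992) and Camk2b (-0.992). Rac3 was at 1.25, 1.10 and 1.21 CPM across WT against 0.47, 0.46 and 0.51 CPM across G643W. With a step as large as that of Traip, r measures mostly how cleanly a gene splits by genotype, whatever its size, and 162 genes had r above 0.9 and 223 below -0.9.

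As a check of the samples, Asxl1 was at 6.95, 3.68 and 7.15 TPM across WT against 13.7, 20.2 and 15.5 TPM across G643W, which does not read the base change itself. The Asxl1 log2 difference, 0.95 ± 0.27 (SE), missed the threshold (edgeR adjusted p = 0.454). All 8 blast markers (Ptprc, Kit, Cd34, Mpo, Elane, Prtn3, Ctsg and Myb) had reads in all 6 libraries, with sums from 1079 to 4091 TPM in WT and 756 to 5812 TPM in G643W. Cd34, a progenitor antigen, was at 64.7, 94.0 and 42.7 TPM across WT against 38.3, 5.82 and 19.9 TPM across G643W, lower in all 3 G643W libraries (log2 difference -1.89 ± 0.57, SE, edgeR adjusted p = 0.477). Kit, the stem cell factor receptor, ranged from 2.12 to 35.9 TPM with overlap. Markers of the gated-out B and T cells summed to at most 16.5 and 12.2 TPM, with Cd3e at most at 0.219, Cd3d at 3.09, Cd4 at 8.67 and Cd79b at 16.2 TPM in any library. By CPM the genotypes separated upward in Cd4, Cd79a, Hba-a1 and Hbb-bs and downward in Cd34 and Pecam1. Of all genes tested, 7.05% separated upward and 8.89% downward. Of each list of 5 gated-out or stromal markers, 3 (erythroid, T cell, stroma) or 4 (B cell) were under 1 TPM in all libraries. The erythroid markers summed to 0.80 to 7.07 TPM in WT and 11.8 to 33.7 TPM in G643W, and those of stroma and endothelium to 16.6 to 30.8 and 9.74 to 24.8 TPM. Ly6g, the neutrophil antigen seen by Gr1 antibodies, was at 6.14, 26.8 and 294 TPM across WT against 10.8, 697 and 245 TPM across G643W. Within each genotype the libraries had the same order in Ly6g as in Traip CPM, but between genotypes Ly6g overlapped and Traip did not. That order was not particular to Ly6g, as the stromal marker Col1a1 and Neil3 also had it in both genotypes by CPM. Of the other gated surface genes, Itgam had that order in G643W only (57.6, 46.8 and 199 TPM across WT, 61.8, 321 and 318 TPM across G643W) and Ly6c2 in neither genotype. The part of any of these markers in the Traip values was not tested.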

How the data were processed

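Per the file headers, the authors deposited 1 Salmon table per library with estimated counts of reads per transcript (not whole numbers) and TPM, scaled to effective length and library total. Salmon 0.12.0, bcl2fastq and the builds mm10 and GRCm38.p6 are from the submitters' processing notes; its options, its index and any use of strand: not given in the sources used here. Salmon divides reads shared by transcripts with a model, so values per transcript are estimates, and a low one can be moved by a few reads. The kit was TruSeq V2, per the labels' protocols.

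Of 136288 transcripts, 136176 matched GENCODE M21, of which 99.2% had the annotated length; the other 112 were left out. Estimated counts were summed over 53458 genes, rounded and kept where filterByExpr passed them at a count of 10 or more. The two-sided test was edgeR 4.0.16's quasi-likelihood test (glmQLFit, then glmQLFTest) in R 4.3.3, on TMM factors, with its single term genotype and Benjamini-Hochberg adjustment over 20654 genes and a threshold of 0.05. The SE is the absolute log2 difference over the square root of F. No 2 libraries agreed within sampling noise. Copies were sought with BLAST+ 2.17.0 (at least 80% identity over at least 500 bases). The fit was also run on counts simulated with the same spread for every gene. That run does not show how the fit performs at the noise of these data. Alternatives used DESeq2 1.42.0, limma 3.58.1 on log2(TPM + 1) and log2(TPM + 0.1), other scaling, filters, transcript sets and libraries.

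Traip, the lists, markers and alternatives were chosen with earlier results of these data known. Named were Traip and its transcripts, the 5 nearest genes with reads on each side, members of each list past the threshold or else the 2 with the lowest p (members whose genotypes separated only as a count), and the 5 genes most and least like Traip by Pearson's r of log2 CPM (prior count 2). Mcm2, Lrr1, Fancc, Rad17, Rnf4, Tnfrsf1b and single markers fall outside this rule and were named after their values were seen. Single values of some marker genes are not reported here.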

Additional observations from a re-analysis of the deposited data

How the results depend on the processing

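The log2 difference of Traip was 6.86. It was 7.38 with length-scaled counts, 7.33 with limma on log2(TPM + 1) and 7.46 with limma on log2(TPM + 0.1), and between 6.63 and 7.09 with 1 library left out. Without Traip-201 it was 7.06, with protein-coding transcripts only 6.63 and summed with its copies 6.86. It turned to -0.96 when only Traip-202 and Traip-205 were counted, a choice made after seeing the data, and the fall was in Traip-205. No gene overlapped Traip, so no sum with overlapping genes was run. Of the genes beside Traip, 0 were called under every alternative. Of the pathway lists, DESeq2 called 1 higher and 1 lower, and all other alternatives 0. Over all genes the 11 higher and 14 lower calls became 8 higher and 8 lower when TMM was left off, 37 and 67 when low genes were kept, 164 and 263 with DESeq2, 8 and 2 with length-scaled counts, 13 and 7 with limma on log2(TPM + 1), 19 and 24 with limma on log2(TPM + 0.1), and 0 to 13 higher and 0 to 7 lower with 1 library left out; the cause was not tested. With the replicate number as a block the Traip difference was 6.88 and 0 genes were called in either direction, with 1772 at an unadjusted edgeR p under 0.05. Same-numbered libraries had correlations of 0.11, -0.16 and 0.18 in their deviations, and pairs with other numbers ran from -0.28 to 0.23. With 3 libraries per genotype these values cannot decide whether same-numbered libraries were paired. The depth limits Traip-202 and the WT values of Traip-203 and Traip-204, all with few reads. Traip-205 is limited by how Salmon assigns reads that it shares with Traip-201.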
